A study of Arabidopsis thaliana with 4 samples.

Results

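The cysteine-rich receptor-like kinases (CRKs) form one of the largest groups of receptor-like kinases in Arabidopsis thaliana, and most of their genes lie in tandem groups on chromosome 4. The family was taken as 40 gene identifiers, and every deposited gene model with an annotated transcript that named at least 1 of them was a member. All 40 genes were found, in 31 models out of 32122 with an annotated transcript and 36251 in all. In 9 of the 31 models several genes share 1 value, so that the levels of, for example, CRK28 and CRK29 cannot be told apart. Of the 31 models, 21 had a mean of at least 1 FPKM (fragments mapped to a transcript, scaled by its length and by how many fragments the library mapped) over the 4 libraries and were tested. The other 10 fell below that level.

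RNA was sequenced from seedlings of 2 wild-type lines of the Columbia accession that had been propagated apart, SALK Col-0 and Another Col-0, to compare their transcriptomes. Each line had 2 biological replicates of 2-week-old plants from soil, kept at 22 °C under long days. Neither line is labelled with an allele, transgene or treatment, and the labels do not say how many seedlings made up a library or whether replicates came from separate sowings, so p-values measure the spread between these libraries. A positive difference stands for a higher level in Another Col-0. Differences are on the log2(FPKM + 1) scale, which understates the change of low genes, and were tested with limma's two-sided moderated test with Benjamini-Hochberg adjustment over 20634 models at a threshold of 0.05.

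A CRK is a membrane protein whose extracellular part carries repeats of the DUF26 domain, a fold held by conserved cysteines, followed by a membrane-spanning stretch and a serine/threonine protein kinase inside the cell. Many CRK genes are known to respond to pathogens, salicylic acid, ozone and other sources of reactive oxygen, and forced expression of several members gives cell death or resistance to bacteria. WRKY transcription factors, many of them induced by salicylic acid, bind the W-box, a promoter element with the core TTGAC, which promoters of pathogen-responsive genes often hold.

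In the 4 libraries, 22495 to 22822 annotated models had a value above 0, and the median over the annotated ones among the tested models was 14.99 to 15.4 FPKM. The sum of all FPKM was higher in replicate 1 of each line, at 1762918 and 1590250, than in replicate 2, at 1076877 and 1228118. Read totals were not used because the table holds none, so the depth behind each value is unknown. Leaf markers summed to 19299 and 21543 FPKM in SALK Col-0 against 20591 and 21302 in Another Col-0 and each of the 5 had at least 409.1 FPKM in every library, beside root markers at far lower levels, as given below.

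The promoters of 6 CRK genes are printed here because these genes are among those with the smallest p in the comparison below. They are the 5 with the smallest p among those with higher values in Another Col-0 whose promoter lies clear of any other gene and of the deposited model, with the first gene taken for a model of several, and CRK2, one of the 2 tested models with both Another Col-0 libraries below both of SALK Col-0. The other of these 2, CRK25, has another gene in that stretch. The stretch of CRK11 lies inside its deposited model and that of CRK14 partly inside, so none of these is printed. Each is the 250 bases before the gene's start, 5′ to 3′ on the gene's strand, from RefSeq (TAIR10.1). Capitals mark the W-box core TTGAC on either strand, which reads GTCAA where it lies on the opposite strand.
CRK30 promoter (chr4:6963271-6963520, plus strand): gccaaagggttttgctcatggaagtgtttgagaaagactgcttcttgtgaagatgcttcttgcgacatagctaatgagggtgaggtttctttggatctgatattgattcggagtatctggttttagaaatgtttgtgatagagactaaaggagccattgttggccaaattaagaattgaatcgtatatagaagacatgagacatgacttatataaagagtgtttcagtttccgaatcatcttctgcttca
CRK39 promoter (chr4:2259248-2259497, plus strand): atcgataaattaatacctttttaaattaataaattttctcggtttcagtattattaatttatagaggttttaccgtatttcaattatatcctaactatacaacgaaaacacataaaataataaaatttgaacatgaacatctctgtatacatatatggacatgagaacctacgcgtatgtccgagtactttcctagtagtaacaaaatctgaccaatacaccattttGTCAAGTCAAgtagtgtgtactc
CRK13 promoter (chr4:12151639-12151888, minus strand): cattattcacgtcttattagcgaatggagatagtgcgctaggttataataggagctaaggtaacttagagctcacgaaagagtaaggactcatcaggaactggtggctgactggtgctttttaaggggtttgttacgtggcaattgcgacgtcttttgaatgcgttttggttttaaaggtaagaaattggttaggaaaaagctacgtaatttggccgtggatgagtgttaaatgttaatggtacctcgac
CRK5 promoter (chr4:12120221-12120470, minus strand): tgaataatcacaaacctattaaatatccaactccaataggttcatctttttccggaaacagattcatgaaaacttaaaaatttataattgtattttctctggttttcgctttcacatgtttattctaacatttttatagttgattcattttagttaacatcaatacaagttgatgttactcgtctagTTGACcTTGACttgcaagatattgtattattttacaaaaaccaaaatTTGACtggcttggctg
CRK21 promoter (chr4:12180937-12181186, minus strand): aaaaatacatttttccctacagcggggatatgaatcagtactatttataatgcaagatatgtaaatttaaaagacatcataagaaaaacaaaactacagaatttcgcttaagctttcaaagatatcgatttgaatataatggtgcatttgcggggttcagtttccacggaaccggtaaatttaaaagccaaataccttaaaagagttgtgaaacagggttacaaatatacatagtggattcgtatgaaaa
CRK2 promoter (chr1:26587629-26587878, minus strand): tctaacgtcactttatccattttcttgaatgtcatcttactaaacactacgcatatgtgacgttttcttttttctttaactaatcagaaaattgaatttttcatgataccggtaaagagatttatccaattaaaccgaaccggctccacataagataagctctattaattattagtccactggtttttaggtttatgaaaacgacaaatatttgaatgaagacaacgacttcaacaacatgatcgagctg

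The promoter of CRK5 held 3 W-box cores, all within 63 bases, and CRK39 held a pair that abut each other within 23 bases. In the stretch before CRK11, between it and the non-coding RNA gene merged into its model, 6 cores were found, 5 of them in the 69 bases nearest the start of CRK11. The stretch before CRK14 held 2. CRK13, CRK21, CRK30 and CRK2 held 0. CRK30 shares 1 value with CRK31 and CRK32, whose stretches held 3 and 2 cores. CRK39 shares 1 value with CRK40, which held 0. The core was thus present and absent among the models with higher values, and a pooled value does not tell which gene it stands for. Over the family, 29 of 40 promoters of this length (72.5%) held the core on either strand, against 12329 of 27443 promoters of all protein-coding genes (44.9%). Stretches that overlap another gene were kept in both counts. At least 2 cores were found in 16 CRK promoters and in 14.1% of all. The longer forms, which contain the core and so are not separate matches, were also counted: TTGACT stood in 18 CRK promoters (45.0%, against 19.1% of all) and TTGACC in 9 (22.5%, against 12.2%). A match is a description of these letters, and binding was not measured.

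Taken one by one, no CRK model passed the test. With limma, 0 of 21 had an adjusted p under 0.05 in either direction, as did 0% of all 20634 models higher and 0% lower, and the smallest adjusted p was 0.202 in the family and 0.199 over all models. At an unadjusted p under 0.05, 8 CRK models (38.1%) were higher in Another Col-0, against 10.2% of all models, and 0 were lower, against 6.45%. Both Another Col-0 libraries lay above both SALK Col-0 libraries for 12 CRK models (57.1%), against 26.2% of all, and below them for 2 (9.52%), against 20.8%. The median difference was 0.17 over the 21 CRK models and 0.02 over all models. It was above 0 in 18 of 21, against 54.1% of all models, and 8 CRK models exceeded the 90th percentile of all models, 0.37. With 1 library left out, the median difference of the CRK models was 0.26 and 0.17 without replicate 1 or 2 of SALK Col-0. It was 0.15 and 0.24 without replicate 1 or 2 of Another Col-0. Over all models these medians ran from 0.005 to 0.045.

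**Figure D1:**
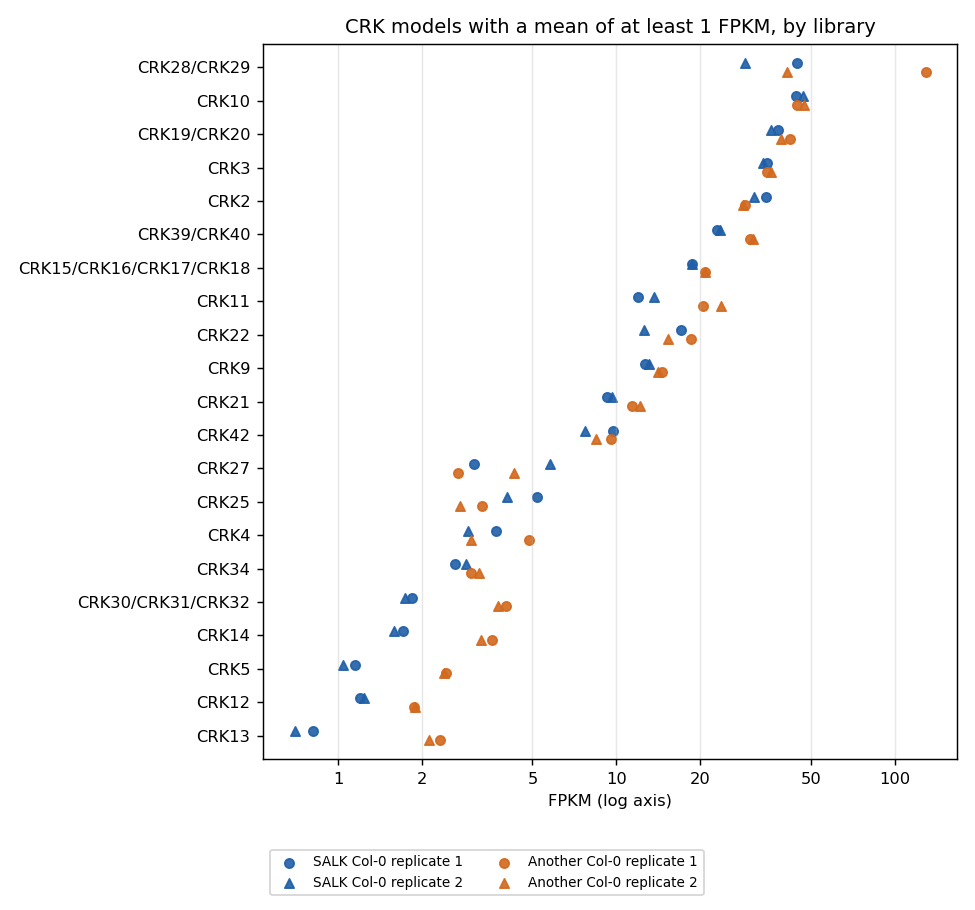
FPKM (log axis) of the 21 tested CRK models in each of the 4 libraries, with SALK Col-0 in blue, Another Col-0 in orange, and the replicate shown by the symbol. For CRK13, CRK5, CRK14 and the model of CRK30, CRK31 and CRK32 the orange symbols stand clear to the right of the blue ones, while those of CRK10 and CRK3 lie among them.

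**Figure D2:**
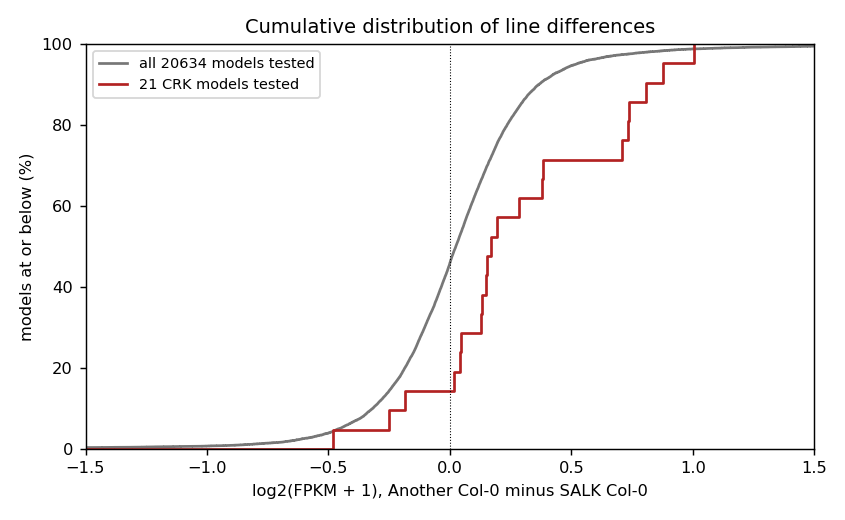
Cumulative share of models (%) at or below each difference between the lines in log2(FPKM + 1), for all 20634 tested models (grey) and the 21 CRK models (red). The CRK curve lies to the right of the grey one above 0, with 8 models beyond the 90th percentile of all models.

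A wider gap was seen for 5 CRK models. Their lowest Another Col-0 library was at least 1.5-fold above the highest SALK Col-0 library, as in 1.99% of all models, and for 0 CRK models was the gap this wide in the other direction, against 1.13% of all. The 5 (23.8% of the 21) were the models of CRK5, CRK12, CRK13, CRK14 and CRK30, CRK31 and CRK32. CRK11 was just outside this limit, with a ratio of 1.49 between its nearest libraries, and CRK12 just inside, with 1.52.

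Most of these stand in the large tandem group on chromosome 4 (chr4:12117531-12191977), which holds 15 of the 31 models. CRK13 (AT4G23210, chr4:12148714-12151479), whose overexpression is known to give hypersensitive-type cell death and salicylic acid-dependent resistance to bacteria, had 0.811 and 0.699 FPKM in SALK Col-0 against 2.32 and 2.13 in Another Col-0. The Another Col-0 values were thus the higher ones without overlap, by 2.95-fold on the means, with a difference of 0.88 ± 0.145 (SE; limma, adjusted p = 0.207). It was the only tested CRK model with a SALK Col-0 mean under 1 FPKM, so that it passed the filter through Another Col-0. Of the 2819 stretches of 101 bases, the read length, in its transcript, 226 (8.02%) also occur in CRK22, whose levels are given below.

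CRK5 (AT4G23130), also named RLK6, whose forced expression is known to give cell death and resistance to Pseudomonas syringae, had 1.15 and 1.04 FPKM in SALK Col-0 against 2.44 and 2.40 in Another Col-0. Its values in Another Col-0 were 2.21-fold higher, again with no overlap, and the difference was 0.71 ± 0.125 (limma, adjusted p = 0.213). CRK14 (AT4G23220) had 1.72 and 1.59 FPKM against 3.58 and 3.25, a 2.06-fold difference between means. Both of its Another Col-0 libraries lay above both of the other line, with a difference of 0.73 ± 0.109 (limma, adjusted p = 0.202). CRK12 (AT4G23200) stood at a similar low level, with 1.20 and 1.24 FPKM against 1.88 and 1.90. The lines did not overlap, and the difference was 0.38 ± 0.128 (limma, adjusted p = 0.317).

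CRK11 (AT4G23190), also named RLK3 and known to be induced by pathogens and oxidative stress, stood at a higher level. Its model, which also holds a non-coding RNA gene (AT4G23205), had 12.0 and 13.7 FPKM in SALK Col-0 against 20.5 and 23.7 in Another Col-0. The values did not overlap and were 1.72-fold higher in Another Col-0, with a difference of 0.74 ± 0.120 (limma, adjusted p = 0.207). Further along the chromosome, CRK21 (AT4G23290) had 9.29 and 9.66 FPKM against 11.4 and 12.2. Here too the lines did not overlap (difference 0.29 ± 0.064; limma, adjusted p = 0.235). The model that pools CRK15, CRK16, CRK17 and CRK18 had 18.7 FPKM in both SALK Col-0 libraries and 20.8 and 20.9 in Another Col-0. That is a small separation, 1.11-fold, with a difference of 0.15 ± 0.046 (limma, adjusted p = 0.299).

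All of the models just described lie on the minus strand. Within the large group, the 7 tested models on that strand had differences of 0.15 to 0.88 with a median of 0.71, and in 7 of 7 the Another Col-0 libraries lay above. The 4 tested models on the plus strand had differences of 0.02 to 0.19 with a median of 0.14, and 2 of 4 lay above. Over all models, 26.2% lay above. Strand was compared after the values were seen, so this is a description. CRK11 to CRK18, with 5 of the 7 models, are neighbours on the minus strand with no CRK gene of the other strand between them. CRK5 (0.71) and CRK21 (0.29) are set apart from that run by plus-strand CRK genes.

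On the plus strand, CRK10 (AT4G23180), also named RLK4, had the highest level of the single-gene CRK models. It had 44.1 and 46.9 FPKM in SALK Col-0 against 44.8 and 47.4 in Another Col-0. The lines overlapped, and the difference was 0.02 ± 0.067 (limma, adjusted p = 1.00), so CRK10, directly beside CRK11, did not separate the lines. The model of CRK19 and CRK20, whose forced expression is known to trigger cell death, had 38.0 and 36.0 FPKM against 42.0 and 39.2. These values did not overlap by a small margin, with a difference of 0.13 ± 0.069 (limma, adjusted p = 0.465). CRK9 (AT4G23170), also named EP1, has a coding length of 798 nt, the shortest in the family, and had 12.6 and 13.1 FPKM against 14.6 and 14.2. It was slightly higher in Another Col-0 in both libraries (difference 0.15 ± 0.053; limma, adjusted p = 0.320). CRK22 (AT4G23300) had 17.1 and 12.5 FPKM against 18.6 and 15.3, and its lines overlapped, with a spread between replicates wider than the difference of 0.19 ± 0.208 (limma, adjusted p = 0.755).

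**Figure D3:**
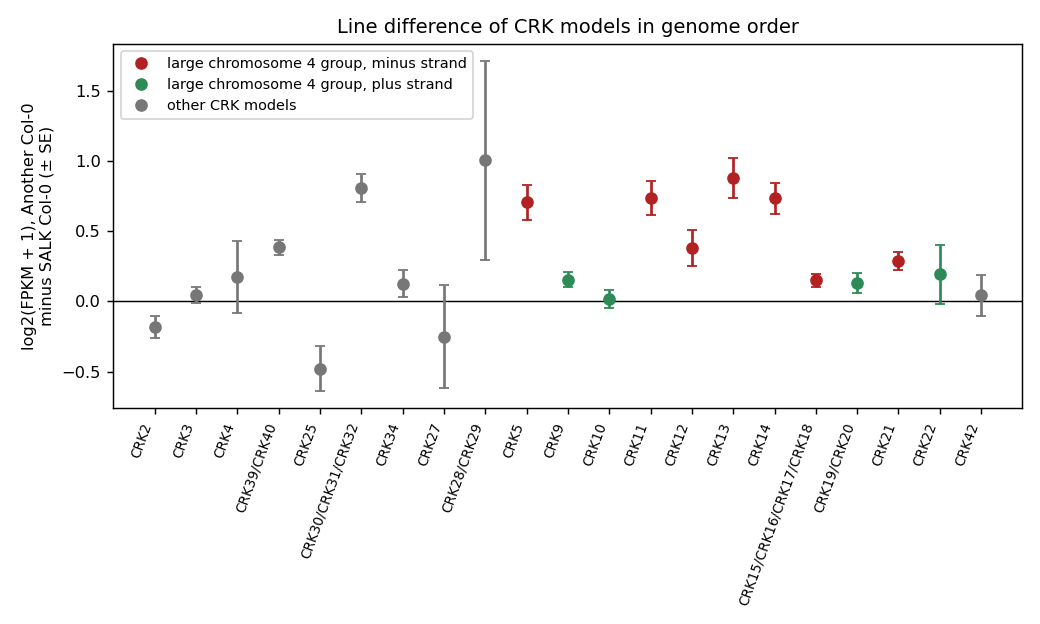
Difference between the lines in log2(FPKM + 1), Another Col-0 minus SALK Col-0, for each of the 21 tested CRK models, with bars of 1 SE from limma. CRK28 and CRK29 have the largest difference on this scale and the widest bar, CRK13 stands at 0.88, and CRK25 at -0.48 is the lowest.

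The smaller tandem groups CRK30 to CRK34 and CRK36 to CRK40 on chromosome 4 held 3 tested models, each with Another Col-0 above, as in 26.2% of all models. In the neighbouring pair CRK28 and CRK29, described below, the lines overlapped. The pooled model of CRK30, CRK31 and CRK32 (AT4G11460, AT4G11470 and AT4G11480) had 1.85 and 1.74 FPKM in SALK Col-0 against 4.03 and 3.75 in Another Col-0. The lines were well apart, 2.17-fold, and this model had the smallest unadjusted p of the family (difference 0.81 ± 0.098; limma, adjusted p = 0.202). CRK34 in the same group, whose model also holds a pseudogene (AT4G11500), had 2.64 and 2.88 FPKM against 2.995 and 3.20. Its lines were separate but close (difference 0.13 ± 0.098; limma, adjusted p = 0.625). The receptor-like kinase-related gene AT4G11521 lies inside the span of the CRK34 model, on the same strand, and is not a member. It had 1.09 and 1.37 FPKM against 3.06 and 3.23, and how reads of the shared span were divided between the models is not given in the sources used here.

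CRK39 and CRK40 (AT4G04540 and AT4G04570), pooled in 1 model, had 22.96 and 23.6 FPKM in SALK Col-0 against 30.3 and 31.1 in Another Col-0. At this higher level the replicates were close and the lines did not overlap, with a 1.32-fold difference between means (0.38 ± 0.051; limma, adjusted p = 0.202). Their neighbours CRK36, CRK37 and CRK38 were all below 1 FPKM.

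CRK28 and CRK29 (AT4G21400 and AT4G21410), in 1 model with AT4G21420, had the largest difference of the family on this scale and also the widest spread. That order depends on the scale, since with a pseudocount of 0.1 the differences of CRK13 (1.44), CRK5 (1.08) and the CRK30, CRK31 and CRK32 model (1.08) exceeded its 1.02, and its 2.32-fold ratio of means was below the 2.95-fold of CRK13. CRK28 is known to associate with the co-receptor BAK1 and to raise immune responses when overexpressed. The model had 44.6 and 29.0 FPKM in SALK Col-0 against 129.6 and 41.2 in Another Col-0. Another Col-0 replicate 1 had the highest value, but the limits deposited beside it, 16.8 and 617.7 FPKM, enclose the values of the other libraries. The lines overlapped, since Another Col-0 replicate 2 lay below SALK Col-0 replicate 1. The difference was 1.00 ± 0.710 (limma, adjusted p = 0.587), and 1 library decided its size. Dropping replicate 1 of Another Col-0 gave 0.19 and dropping its replicate 2 gave 1.82. For SALK Col-0 these values were 1.30 and 0.70. In both lines replicate 1, the library with the larger FPKM sum, was the higher one. Whether that moved this value was not tested.

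This model also weighs on the family's sum. Over all 31 models, which as values per length may be added, the sum was 322.1 and 299.6 FPKM in SALK Col-0 against 435.8 and 346.6 in Another Col-0. Leaving out CRK28 and CRK29, it was 277.6 and 270.5 against 306.2 and 305.4. The lines did not overlap in either sum. As a share of all FPKM of a library they did overlap, with 0.0183% and 0.0278% in SALK Col-0 against 0.0274% and 0.0282% in Another Col-0 for all 31 models, and 0.0158% and 0.0251% against 0.0193% and 0.0249% with CRK28 and CRK29 left out. The log2 ratio of the means was 0.33 with CRK28 and CRK29 and 0.16 without them.

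The scattered members, with 6 tested models outside the tandem groups, included both tested CRK models with lower, non-overlapping values in Another Col-0. CRK25 (AT4G05200) had 5.19 and 4.05 FPKM in SALK Col-0 against 3.29 and 2.75 in Another Col-0. The lines did not overlap, with means 0.653-fold in Another Col-0 (difference -0.48 ± 0.161; limma, adjusted p = 0.315). Of the stretches of 101 bases in its transcript, 13.7% also lie in the overlapping gene AT4G05190, which had 6.47 and 5.11 FPKM against 5.46 and 5.03. CRK2 (AT1G70520), which is known to phosphorylate the NADPH oxidase RBOHD and to raise its production of reactive oxygen, had 34.6 and 31.2 FPKM against 29.1 and 28.5. It too was lower in both Another Col-0 libraries (difference -0.18 ± 0.076; limma, adjusted p = 0.375), and RBOHD itself had 16.3 and 18.0 FPKM against 16.2 and 16.1. The deposited CRK2 model spans AT1G70518 on the opposite strand, which had 20.7 and 13.8 FPKM against 18.1 and 11.0, with the lines overlapping.

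For the other scattered members the lines overlapped. CRK3 (AT1G70530), the neighbour of CRK2, had 34.9 and 33.6 FPKM against 34.7 and 36.0, which is a level close to that of CRK2 in SALK Col-0. CRK42 (AT5G40380) had 9.76 and 7.73 against 9.55 and 8.43, and CRK4 (AT3G45860), another member whose forced expression is known to give cell death, had 3.69 and 2.94 against 4.85 and 3.01. CRK27, in 1 model with the lipid A synthesis gene LpxD2 (AT4G21220), had 3.09 and 5.77 FPKM against 2.70 and 4.28. In these models the replicates of a line differed by as much as or more than the lines, and the differences ran from -0.25 to 0.17.

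The family spanned a wide range of levels. CRK10, CRK19 and CRK20, CRK3, and CRK28 and CRK29 stood at 29.0 FPKM or more in every library, and CRK2 was just below, at 28.5 to 34.6. At the other end, CRK1 and CRK33 were listed at 0 in every library. CRK38 was listed at 0 in SALK Col-0 and at 0.0243 and 0.0288 FPKM in Another Col-0, and CRK7, CRK23, CRK24 and CRK37 were at or below 0.0558 in every library. CRK36, which is known to bind the immune kinase BIK1, had 0.415 to 0.531 FPKM, the model of CRK6 and CRK8 had 0.421 to 0.541, and CRK26 had 0.806 to 0.958. The model of CRK6 and CRK8 was lower in both Another Col-0 libraries, while the lines overlapped for CRK36 and CRK26, and none of the 3 was tested. Because the tissue is whole seedlings, fewer cells of a type and less RNA per cell cannot be told apart for any of these levels.

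The authors deposited a lower and an upper limit beside each FPKM value. In 21 of 21 tested CRK models the deposited limits of all 4 libraries overlapped each other. This was not counted over all models, so it is not a trait of the family. For CRK2, for example, the limits ran from 21.7 to 47.4 FPKM in SALK Col-0 replicate 1 and from 17.6 to 39.4 in Another Col-0 replicate 2. The widest were those of the CRK28 and CRK29 model in Another Col-0 replicate 1, given above. The level of these limits is not given in the sources used here.

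The members differ widely in sequence. Over the 608 of 780 pairs in which at least 50% of the shorter coding sequence aligned, the median identity of the aligned bases was 65.1%, between 58.8% and 90.6%. CRK13 and CRK22 were 80.2% identical, and had differences of 0.88 and 0.19. Some pooled neighbours were closer, with 90.2% for CRK19 and CRK20, 87.5% for CRK31 and CRK32, 87.1% for CRK39 and CRK40, and 86.9% for CRK28 and CRK29. Others were not by this measure, since CRK30, pooled with CRK31 and CRK32, was closest to CRK24, at 72.7%. CRK16, pooled with CRK15, CRK17 and CRK18, was closest to CRK24 too, at 79.4%. Yet CRK16 shares 477 of its 1929 stretches of 101 bases (24.7%) with CRK17, whose annotated span overlaps its own. CRK28 shares 370 of its stretches of 101 bases with CRK29. Reads from such shared stretches would not tell the genes of either pair apart even in separate models.

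CRK genes outside the 40 were looked at beside them, in a list of 6 genes of which 4 models were tested. With limma, 0 passed, 2 were higher at an unadjusted p under 0.05 (10.2% of all models), and 3 of 4 had both Another Col-0 libraries above (26.2% of all models), with a median of 0.45. CRK45 (AT4G11890), also named ARCK1, a receptor-like kinase of the cytosol that represses responses to abscisic acid, had 1.28 FPKM in both SALK Col-0 libraries and 5.75 and 5.26 in Another Col-0. This 4.30-fold separation was wider than that of any tested member of the 40 (difference 1.51 ± 0.097; limma, adjusted p = 0.199). CRK41 (AT4G00970) had 8.71 and 7.29 FPKM against 15.1 and 12.4, with no overlap between the lines (difference 0.71 ± 0.149; limma, adjusted p = 0.225). AT1G70740, which carries no CRK name in the reference, had 9.63 and 10.2 FPKM against 10.96 and 11.8.

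Other proteins that carry DUF26 but no kinase gave a mixed picture. Of the plasmodesmata-located proteins, which sit at the channels between cells, 6 of 8 were tested, 0 had an unadjusted p under 0.05, and the median was -0.05. PDLP2 (AT1G04520) was the only one whose lines did not overlap, and it was lower, with 6.93 and 5.93 FPKM against 5.53 and 5.04. Of 27 secreted DUF26 proteins, 21 were listed at 0 in every library and 2 were tested, both with Another Col-0 above. Over all models, 26.2% lay above and 20.8% below, and 10.2% were higher and 6.45% lower at an unadjusted p under 0.05 with limma. AT3G22060 had 43.1 and 45.2 FPKM against 60.5 and 63.8, and the model of AT5G48540 had 19.8 in both SALK Col-0 libraries against 23.8 and 23.9.

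**Figure D4:**
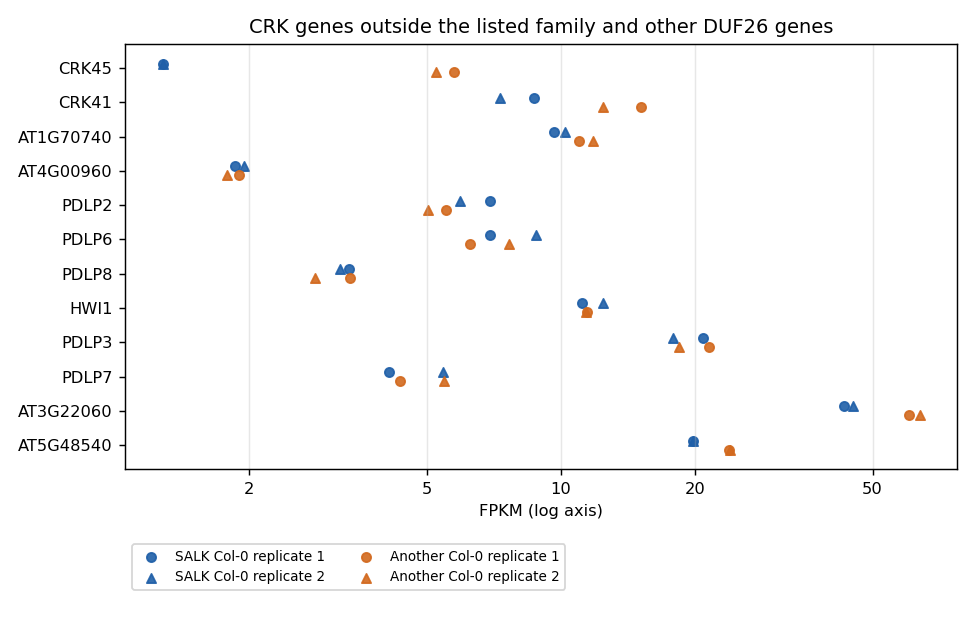
FPKM (log axis) of tested CRK genes outside the listed family and of other DUF26 genes in each library, colours and symbols as for the CRK models. CRK45 shows the widest separation, from 1.28 to 5.26 FPKM or more, and the PDLP genes mostly overlap.

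Among 14 genes of receptor partners, mitogen-activated protein kinases and oxidases with which CRKs are known to act or share pathways, 0 passed with limma, 2 were higher and 1 lower at an unadjusted p under 0.05, and 4 lay above and 3 below without overlap (median 0.18). These last shares are near the 26.2% and 20.8% of all models. The flagellin receptor FLS2 had 23.8 and 19.7 FPKM against 36.7 and 31.8 (difference 0.63 ± 0.141; limma, adjusted p = 0.233). The co-receptor gene SERK1 was on the other side, with 7.66 and 6.99 against 5.25 and 5.49, and the kinase gene MPK4 had 36.2 and 37.5 against 41.6 and 42.1.

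Of 17 salicylic acid and WRKY regulators, 14 were tested, 0 passed with limma, 5 were higher and 2 lower at an unadjusted p under 0.05, and 8 lay above and 5 below without overlap (median 0.10). Over all models the shares were 10.2% and 6.45% by p, and 26.2% and 20.8% by overlap. WRKY18, a regulator of defence that binds W-boxes, had 12.0 and 11.4 FPKM against 28.3 and 27.5, and WRKY40, which acts with it, had 17.3 and 15.8 against 24.8 and 24.5. WRKY70, a salicylic acid-induced regulator, was lower in Another Col-0, with 24.8 and 21.5 against 13.6 and 12.9. The salicylic acid marker PR1 had 0.102 and 0.136 FPKM in SALK Col-0 against 0.189 and 0.314 in Another Col-0. On the same list BGL2 had 0.197 and 0.232 against 0.687 and 0.669, and PR5 had 4.38 and 5.26 against 6.29 and 6.84. PR1 and BGL2 were below 1 FPKM and not tested. Of the wall-associated kinases, receptor-like kinases that bind pectin, 3 models were tested and 2 lay above, WAK2 at 20.5 and 20.95 against 24.9 and 26.2 and the pooled WAK5 and WAK1 model at 1.42 and 1.498 against 3.06 and 3.10.

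The part of organ and stage markers in the CRK values was not tested, and their levels are given here. None of the 19 marker models tested had an adjusted p under 0.05 with limma, while 4 were higher and 5 lower at an unadjusted p under 0.05, against 10.2% and 6.45% of all models. Without overlap, 5 lay above and 5 below, against 26.2% and 20.8% of all models. Flower markers (3 of 5 tested, with 2 above) summed to 22.2 and 16.6 FPKM in SALK Col-0 against 47.3 and 40.3 in Another Col-0. PI had 3.21 and 2.86 FPKM against 9.62 and 8.42, and SEP3 had 17.2 and 12.2 against 35.7 and 30.1. The lines overlapped for SHP1, at 1.53 and 1.32 against 1.43 and 1.29. The floral homeotic genes AP3 and AG were below 1 FPKM and not tested. AP3 had 0.141 and 0.119 FPKM against 0.346 and 0.281, and AG 0.149 and 0.109 against 0.204 and 0.152. Senescence markers (4 of 5 tested, with 2 below) summed to 2038 and 1670 against 1886 and 1519. Among them NAP, a regulator of leaf senescence, had 45.1 and 35.4 FPKM against 19.3 and 17.5, and SAG12 was at 0.0193 or less in every library. Root markers (6 of 9 tested, with 2 above and 1 below) summed to 53.6 and 60.0 against 57.9 and 57.1. Seed markers (1 of 3 tested) summed to 7.47 and 7.10 against 2.37 and 2.14, and nearly all of this was the storage protein gene CRA1, with SESA3 listed at 0. Of 5 leaf markers RBCS1A lay above, with 6626 and 6665 FPKM against 8586 and 7825, and CA1 below, with 579.7 and 681.8 against 409.1 and 479.9.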

How the data were processed

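The authors deposited 1 table of FPKM values for 36251 models in 4 libraries, with a status and 2 limits beside each value, per the file headers. The submitters' processing notes name TAIR10, TopHat, Cufflinks and Cuffdiff, and versions and roles are not given in the sources used here. Single-end reads were 101 nt long. FPKM pool the reads of all genes in a merged model, so they were not treated as counts. In 301 rows the annotation fields are displaced, and the identifier was taken from where it stands, and 19 models with a failed or too deep estimate were left out.

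Models whose mean reached 1 FPKM were tested as log2(FPKM + 1) with limma 3.58.1 (R 4.3.3), with a mean-variance trend, no covariate and 2 residual degrees of freedom. The smallest two-sided p that exact permutation allows with 2 libraries a line is 0.333. Two-sided p-values were adjusted over all 20634 models, and the script was tested on simulated data. Alternatives changed the scaling, filter, pseudocount, trend or model set, added a replicate block, or dropped a library.

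The members, lists and tests were chosen with earlier results of these data known. Values are given for the CRK models with the largest differences in each direction and the highest means, and of each list for the members with the smallest p. The 1.5-fold gap, the choice among promoters, the strand comparison and the overlap of limits were chosen after values were seen. So were further genes beyond that rule, among them RBOHD, PR1, BGL2, PR5, AT4G11521, AT4G05190 and AT1G70518. No comparison used the limits as a test.

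Promoters and coding sequences were read from RefSeq (TAIR10.1), where 99.997% of 30152 deposited single-gene models overlap the same gene and 52.54% have an identical start or end, so a deposited start can differ from the one used. All 40 genes matched. Pairs of coding sequences were aligned with Biopython 1.88. Proteins were not used here.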

Additional observations from a re-analysis of the deposited data

How the results depend on the processing

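No CRK model passed the threshold under another pseudocount, filter or scaling, without the trend or with annotated models alone. The smallest adjusted p of the family with limma then ran from 0.0794 (annotated models alone) to 0.335 (quantile normalization). With annotated models alone, limma called 10 models higher and 1 lower among 18432. In that fit 9 of 21 CRK models had an unadjusted p under 0.05, against 3977 of all 18432. With the replicate number as a block, limma called 2951 of 20634 models higher and 1673 lower. Of the 21 CRK models, 7 were called higher and 1 lower. With annotated models alone and the block, limma called 4896 of 18432 models higher and 3335 lower. Of the 21 CRK models, 10 were called higher and 2 lower. The labels do not say that a number marks a shared batch, and there are only 2 pairs. Libraries of the same number deviated together (correlation 0.95 over 20634 models and 0.80 over the 21 CRK models, a hint from the data).

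Of the CRK models with Another Col-0 above or below without overlap, 6 and 1 were left at a mean of at least 5 FPKM, where only 12 models were tested. Quantile normalization left 10 above and 3 below, and turned CRK3 to -0.0072 and CRK10 to -0.049. The share of all models without overlap was not counted under these settings, so these counts are not a result about the family. With a pseudocount of 0.1 the largest difference was that of CRK13, 1.44. Scalings moved the median of all models to -0.01 and 0.01 from 0.02.

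Without single libraries, the family's median ran from 0.15 to 0.26, the number above from 13 to 17 and below from 2 to 3. Dropping a library can only keep or raise these 2 numbers, so they say nothing on stability. The log2 ratio of the summed FPKM ran from 0.16 (without Another Col-0 replicate 1) to 0.49, and from 0.14 to 0.18 with CRK28 and CRK29 left out. Differences that changed sign were those of CRK10 (-0.027 to 0.060), CRK27 (-0.61 to 0.11), CRK22 (-0.017 to 0.40), CRK42 (-0.11 to 0.19) and CRK4 (-0.10 to 0.44). The cause was not tested. The table gives no depth, so low FPKM carry an unknown counting error.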

Other observations

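A deposited model on the plus strand with no annotated transcript lies opposite CRK3 (chr1:26591280-26591779) and carries its identifier. It was at 0 FPKM in replicate 1 of both lines, and in replicate 2 at 30.6 (SALK Col-0) and 31.2 (Another Col-0), so that it followed the replicate number and not the line. CRK3 itself did not follow that pattern, with 34.9 and 33.6 FPKM in SALK Col-0 against 34.7 and 36.0 in Another Col-0. A second model without an annotated transcript, which carries the identifier of CRK39, was listed at 0 in every library. Deposited models overlapped 11 of the 31 CRK models in 19 places, and 7 of these overlapping models reached 1 FPKM in at least 1 library.

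The receptor genes EFR and SERK4 had the same order of libraries as CRK28 and CRK29, in which replicate 1 was the higher in each line. EFR, the receptor of the bacterial elongation factor, had 4.48 and 1.69 FPKM in SALK Col-0 against 11.9 and 2.71 in Another Col-0. The model of SERK4 had 47.1 and 14.7 FPKM against 66.1 and 18.9. These genes were picked after their values were seen.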
